A study of Mus musculus with 6 samples.

Results

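The transcription factors that pattern lateral plate mesoderm and the limb fields were examined in mouse embryo tissue dissected at the level of the presomitic mesoderm, 9.5 days post coitum. The 10 genes are Gata4, Gata5, Gata6, Hand1, Hand2, Tbx4, Tbx5, Foxf1, Pitx1 and Prrx1. Every probe set that the annotation of the Affymetrix MOE430A array assigns to exactly 1 of these symbols was taken, which gave 19 of the 22626 probe sets tested and 10 of the 12393 named genes. All 10 were represented, 7 of them by several probe sets and 3 by 1 probe set.

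The wild-type embryos were C57BL/6. The mutant embryos were homozygous for the tm1Rbe allele of Dll3, also called the neo allele, on C57BL/6. Dll3 encodes an atypical ligand of the Notch family that acts in the segmentation clock, and the series asked which genes of the presomitic mesoderm its loss disturbs. There were 3 pools of embryos per genotype, each a biological replicate on 1 array. Per the labels' protocols, remnants of the allantois were removed and the embryo was cut behind the newest somite, so the tissue held all germ layers. The number of embryos per pool is not known here.

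Lateral plate mesoderm lies beside the presomitic mesoderm and gives rise to body wall, gut muscle, heart and limb bud mesenchyme. GATA zinc finger factors and HAND basic helix-loop-helix factors act in its cardiac and visceral parts, and Foxf1 marks the layer that lines the gut. Tbx5 belongs to the forelimb field and the heart, Tbx4 and Pitx1 to the hindlimb field, and Prrx1 to limb and other mesenchyme. Tbx4 and Hand1 are also known from the allantois.

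The deposited values are relative: 92.8% of probe sets had a median of 1 over the 6 arrays within 0.0011, and 1640 had a lower median, so that what these were divided by is not known. A value therefore ranks pools for 1 probe set and gives no level that could be set against another gene. All 19 member probe sets had a median of 1 within that tolerance. For the same reason the labelled tissue could not be checked by whether its markers are present. Dll3 itself checked the labels. Its probe set 1449236_at read 1.463, 1.633 and 2.007 in the wild-type pools, numbered 1 to 3, and 0.480, 0.476 and 0.537 in the mutant pools, numbered likewise. It fell 3.39-fold (log2 difference -1.76, SE 0.14, limma adjusted p = 0.00691). It was the 1 probe set of 22626 that passed, or 0.00442%, and leaving out wild-type pool 2 or any 1 mutant pool left 0 calls.

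Some pools stood apart. Mutant pool 1 carried heart muscle transcripts: of 41 probe sets of a list of 25 heart muscle genes, 35 were highest there, and 28 were at least 1.5-fold above the median of the other 5 pools. The median log2 ratio of that list was 1.03 in mutant pool 1, between -0.05 and -0.01 in the other mutant pools and between -0.19 and 0.00 in the wild-type pools. Single probe sets of genes outside that list, picked after their values were seen, were also high in mutant pool 1. Relative to the median of the other pools, the endoderm gene Afp was 3.58-fold by 1416645_a_at and 1.88-fold by 1416646_at. Ttr, also of endoderm, was 2.44-fold by 1454608_x_at, and the smooth muscle actin gene Acta2 was 2.38-fold by 1416454_s_at. The first Afp probe set and that of Ttr had medians below 1. Further probe sets of these genes were less high: 1.49-fold, 1.15-fold and 1.11-fold for Afp, 1.39-fold and 0.996-fold for Ttr, and 1.05-fold for Acta2. Gut and visceral endoderm as a list was not raised in mutant pool 1, with a median log2 ratio of -0.0029. Of its 29 probe sets 9 were highest there, where 12.3% of all probe sets were. The allantois and umbilical mesoderm list, which holds Acta2, had a median log2 ratio of 0.21 in mutant pool 1. It was 0.004 and 0.006 in the other mutant pools and between -0.20 and -0.02 in the wild-type pools. Of its 17 probe sets 7 were highest in mutant pool 1. For endothelium the median there was 0.02, and 1 of 19 probe sets was highest. Wild-type pool 3 had the widest spread over all probe sets, with an interquartile range of 0.40 on the log2 scale against 0.11 to 0.22 in the other pools. Results on the members are therefore given with and without these pools.

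Members of the set lay mostly above the wild type in the mutant, by small amounts, and none passed the test. By sign, 18 of 19 probe sets were higher in the mutant, against 49.1% of all probe sets. The median log2 difference of the 19 was 0.16, against about 0.00 (-0.0021) over all probe sets. Fold differences ran from 0.953 for Hand2 to 1.30 for 1 probe set of Gata5, so no member reached 1.5-fold. The limma adjusted p over all probe sets was 0.9999 for each of the 19. At an unadjusted p under 0.05 there were 2 of 19, both of GATA genes, where 1.16% of all probe sets reached that level. Without mutant pool 1 there were again 2 of 19, against 1.51%, 1 of Gata6 and 1 of Pitx1, and 0 passed after adjustment, where 0% of all probe sets did. Between the genotypes there was no overlap for 3 of the 19, or 15.8%, all higher in the mutant, against 3.05% of all probe sets that were higher without overlap. Because the genes were chosen with earlier results known, these counts describe the set and are not a test of it.

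**Figure D1:**
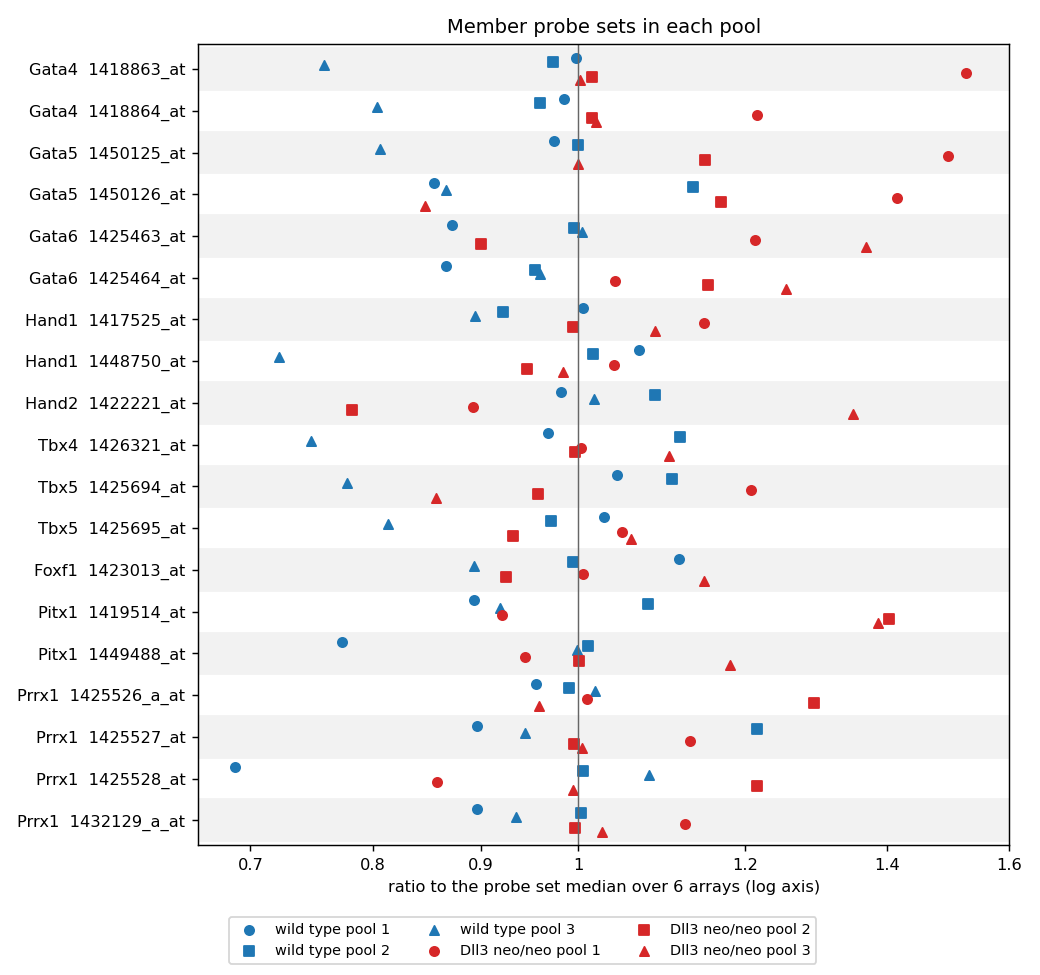
Ratio of each of the 19 probe sets to its own median (log axis) in each pool, blue for wild type and red for mutant, with the marker shape giving the pool number. Mutant pool 1 was highest for both probe sets of Gata4 and of Gata5, and wild-type pool 3 was lowest for 9 of the 19.

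The sign depended on single pools for part of the set. Wild-type pool 3 was the lowest of the 6 pools for 9 of the 19 probe sets, where it was lowest for 29.4% of all probe sets. Mutant pool 1 was the highest for 7 of the 19, where it was highest for 12.3% of all. Without mutant pool 1, 16 of 19 were higher in the mutant, against 54.1% of all probe sets, and the median log2 difference was again 0.16. Without wild-type pool 3, 13 of 19 were higher, against 52.8% of all, with a median of 0.15. With both pools left out, an alternative added after the data were seen, 13 of 19 were higher, against 54.8% of all, and the median was 0.07. No member was called in any of these comparisons. Leaving out wild-type pool 2, 8 members did not overlap, against 10.6% of all probe sets in either direction. The count was 7 when mutant pool 2 was left out, against 10.6%, and 6 when mutant pool 3 was, against 13.1%.

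Gata4, Gata5 and Gata6 encode zinc finger factors of cardiac, gut and visceral mesoderm and of endoderm, and they shared 1 direction by sign. All 6 of their probe sets were higher in the mutant, with log2 differences from 0.24 to 0.38 and a median of 0.28. The pool medians of the 6 were -0.12, -0.02 and -0.26 in the wild-type pools and 0.39, 0.11 and 0.02 in the mutant pools. The mutant pools thus lay above the wild-type pools, closely so for mutant pool 3 and wild-type pool 2. All 6 stayed higher without mutant pool 1 (median 0.19), without wild-type pool 3 (median 0.26) and without both (median 0.09).

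Gata4, a factor of heart precursors and endoderm, was read by 1418863_at at 0.998, 0.973 and 0.758 in the wild-type pools and at 1.526, 1.015 and 1.002 in the mutant pools. The genotypes did not overlap, but apart from mutant pool 1 and wild-type pool 3 the other 4 pools lay close together. Its log2 difference was 0.36 (SE 0.18, 95% interval -0.05 to 0.77), 0.16 without mutant pool 1 and 0.23 once wild-type pool 3 was left out. The second probe set, 1418864_at, gave 0.985, 0.959 and 0.803 in the wild-type pools and 1.216, 1.015 and 1.020 in the mutant pools. It again showed no overlap, with the same pools at the extremes and a log2 difference of 0.24 (SE 0.13), 0.16 without mutant pool 1 and 0.15 once wild-type pool 3 was left out. With both mutant pool 1 and wild-type pool 3 left out, the differences were 0.03 and 0.07.

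Gata4 shared its highest and lowest pool with some muscle genes, but not the order of the pools between them. Probe set 1418863_at was the 1 member probe set whose log2 ratios spanned at least 1 over the pools, and the probe sets of other genes nearest to it by root mean square difference of log2 ratios over the 6 pools were those of Pygm, Nkx2-5 and Cnn1. Their root mean square differences from Gata4 were 0.07, 0.07 and 0.08. Pygm encodes the muscle glycogen phosphorylase, Nkx2-5 is a homeobox factor of heart precursors, and Cnn1 encodes a calponin of smooth muscle. Nkx2-5 read 1.099, 0.983 and 0.740 in the wild-type pools and 1.492, 0.954 and 1.017 in the mutant pools, high in mutant pool 1 and low in wild-type pool 3 as Gata4 was. The part that heart tissue, or any endoderm, in mutant pool 1 had in the Gata4 and Gata5 differences was not tested. In pooled tissue, more cells of a type and more RNA per cell cannot be told apart.

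Gata5, a factor of heart and gut precursors, had the largest difference of the set with all 6 pools. Its probe set 1450125_at read 0.974, 1.0 and 0.806 in the wild-type pools and 1.497, 1.148 and 1.0 in the mutant pools. Mutant pool 3 and wild-type pool 2 met at the same value, so the genotypes touched. The log2 difference was 0.38 (SE 0.16, 95% interval 0.01 to 0.74), and 0.22 without mutant pool 1 (95% interval -0.13 to 0.56). The other probe set, 1450126_at, read 0.855, 1.134 and 0.866 in the wild-type pools and 1.416, 1.169 and 0.847 in the mutant pools. Here the lowest value of all was in mutant pool 3, the genotypes overlapped, and the log2 difference of 0.25 (SE 0.19) was 0.08 without mutant pool 1, and 0.38 or 0.45 when wild-type pool 2 or mutant pool 3 was left out. In mutant pool 1 the 2 probe sets were 1.39-fold and 1.40-fold above the mean of the other mutant pools.

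Gata6, a factor of endoderm and visceral mesoderm, differed from its relatives in which pools were high. Its probe set 1425464_at read 0.866, 0.954 and 0.959 in the wild-type pools and 1.041, 1.152 and 1.254 in the mutant pools. All 3 mutant pools lay above all wild-type pools, and mutant pool 1 was the lowest of the mutant pools. The log2 difference was 0.31 (SE 0.12, 95% interval 0.05 to 0.57, limma adjusted p = 0.9999), the smallest unadjusted p of the set, at rank 96 of 22626. It was 0.38 without mutant pool 1 and 0.40 without that pool and wild-type pool 3. The other probe set, 1425463_at, read 0.872, 0.996 and 1.004 in the wild-type pools and 1.213, 0.900 and 1.368 in the mutant pools. Mutant pool 2 fell among the wild-type pools there, and the log2 difference was 0.26 (SE 0.16). It was 0.22, 0.43 and 0.13 without mutant pools 1, 2 and 3. The 2 probe sets disagreed most in mutant pool 2, by 0.36 on the log2 scale.

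**Figure D2:**
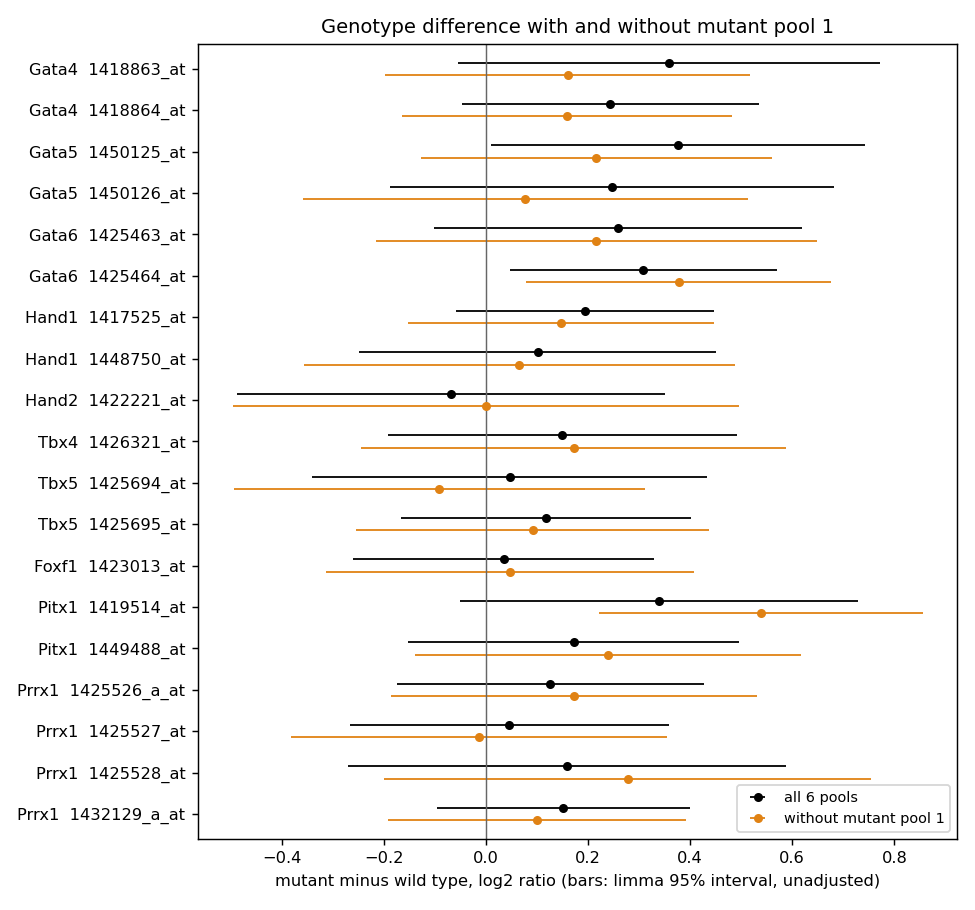
Mutant minus wild-type difference in log2 ratio for each probe set, in black with all 6 pools and in orange without mutant pool 1, with bars for the unadjusted 95% limma interval. With all pools the interval lay above 0 for 2 of the 19, 1 of Gata5 and 1 of Gata6, and without mutant pool 1 for 1 of Gata6 and 1 of Pitx1.

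The HAND factors, which act in the heart, lateral mesoderm and limb bud, showed no common direction. Hand1, by 1417525_at, read 1.005, 0.922 and 0.894 in the wild-type pools and 1.147, 0.995 and 1.087 in the mutant pools, a log2 difference of 0.19 (SE 0.11). Mutant pool 2 lay below wild-type pool 1, so the genotypes overlapped narrowly. Its other probe set, 1448750_at, read 1.069, 1.016 and 0.722 in the wild-type pools and 1.040, 0.946 and 0.984 in the mutant pools. The difference of 0.10 (SE 0.16) there rested on the low wild-type pool 3, and it was -0.08 without that pool. Hand2, an essential factor of the posterior limb bud and right ventricle, was the 1 gene lower in the mutant by sign. Its probe set 1422221_at read 0.982, 1.087 and 1.018 in the wild-type pools and 0.892, 0.782 and 1.350 in the mutant pools. The mutant pools lay on both sides of the wild type, with mutant pool 3 at the top and mutant pool 2 at the bottom. The log2 difference was -0.07 (SE 0.19, 95% interval -0.49 to 0.35), and it was 0.09 without mutant pool 2.

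For Hand2 and Tbx4 the RefSeq promoter table (GRCm38.p6) gave bases that match motifs of factor families in the set. They are shown because the motifs are those of GATA and HAND factors, and the capitals mark them. The array data do not measure binding there, and a match is a description of letters only. The motifs searched on both strands were AGATAA for GATA factors and CATCTG for an E-box of basic helix-loop-helix factors. The others were TGGGAA for the Notch mediator RBPJ, TGTTTAC for forkhead factors, GGTGTGA for T-box factors and TAATCC for bicoid-type homeobox factors such as Pitx1. The windows are the 250 bases before the gene's start, with Hand2 at chr8:57320733-57320982 on the plus strand and Tbx4 at chr11:85896515-85896764 on the plus strand.
Hand2: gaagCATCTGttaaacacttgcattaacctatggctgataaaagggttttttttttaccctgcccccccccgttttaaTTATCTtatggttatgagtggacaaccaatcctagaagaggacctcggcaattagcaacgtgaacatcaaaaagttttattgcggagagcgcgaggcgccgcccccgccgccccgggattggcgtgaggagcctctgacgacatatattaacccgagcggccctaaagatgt
Tbx4: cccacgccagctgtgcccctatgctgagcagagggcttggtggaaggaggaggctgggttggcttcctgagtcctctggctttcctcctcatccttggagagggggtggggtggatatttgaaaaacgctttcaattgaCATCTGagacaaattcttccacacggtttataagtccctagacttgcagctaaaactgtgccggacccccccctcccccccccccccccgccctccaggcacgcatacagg
The table held 4 of the 10 genes, Prrx1 and Gata5 besides these. Of all 32851 windows of that length, 9.99% held the GATA motif, 14.4% the E-box, 21.6% the RBPJ motif, 3.17% the forkhead motif, 3.33% the T-box motif and 6.25% the bicoid-type motif. Hand2 held AGATAA, on the opposite strand, and CATCTG, and Tbx4 held CATCTG. No other match to the 6 strings was found in the 4 windows. Other forms of these motifs were not searched, so a window without a match may still hold one.

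The T-box factors of the limb fields and heart were low in wild-type pool 3 and otherwise close between genotypes. Tbx4, the hindlimb and allantois factor, read 0.968, 1.117 and 0.748 in the wild-type pools and 1.003, 0.997 and 1.104 in the mutant pools by 1426321_at. The highest and the lowest value both fell in the wild type, and the log2 difference of 0.15 (SE 0.15) was -0.0088 without wild-type pool 3. Tbx5, the forelimb and heart factor, read 1.043, 1.108 and 0.778 in the wild-type pools and 1.207, 0.957 and 0.857 in the mutant pools by 1425694_at. Its genotypes overlapped throughout, and the log2 difference of 0.05 (SE 0.17) was -0.09 without mutant pool 1. The second probe set of Tbx5, 1425695_at, read 1.029, 0.971 and 0.813 in the wild-type pools and 1.049, 0.932 and 1.060 in the mutant pools, a difference of 0.12 (SE 0.13), or 0.02 without wild-type pool 3. Wild-type pool 3 was the lowest pool for all 3 T-box probe sets.

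Foxf1, the forkhead factor of the mesoderm around the gut and a target of hedgehog signals, was close to even. Its probe set 1423013_at read 1.116, 0.995 and 0.893 in the wild-type pools and 1.005, 0.925 and 1.147 in the mutant pools. The log2 difference was 0.03 (SE 0.13, 95% interval -0.26 to 0.33), and it turned to -0.04 without wild-type pool 3 and to -0.05 without mutant pool 3. Of the 19 intervals, 13 had an upper bound below a 1.5-fold rise, Foxf1 among them, and 6 did not.

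Pitx1, the homeobox factor that sets hindlimb identity, differed more, not less, between genotypes when mutant pool 1 was left out, unlike Gata4 and Gata5. Its probe set 1419514_at read 0.893, 1.079 and 0.919 in the wild-type pools and 0.921, 1.404 and 1.386 in the mutant pools. Mutant pools 2 and 3 stood above every other pool, while mutant pool 1 lay among the wild-type pools. The log2 difference was 0.34 (SE 0.17, 95% interval -0.05 to 0.73) with all pools. Without mutant pool 1 it was 0.54 (SE 0.14, 95% interval 0.22 to 0.86, limma adjusted p = 1.0), a fold of 1.45 with no overlap. Among all probe sets 12.7% did not overlap in either direction in that comparison, and 4 of the 19 members did not, or 21.1%. The second probe set, 1449488_at, read 0.773, 1.011 and 0.999 in the wild-type pools and 0.944, 1.001 and 1.180 in the mutant pools. It gave a smaller difference of 0.17 (SE 0.14), which was 0.24 without mutant pool 1. It was 0.08 when mutant pool 3 was left out and 0.05 when wild-type pool 1 was. In mutant pool 2 the 2 probe sets differed by 0.49 on the log2 scale, the widest gap between probe sets of 1 gene in the set.

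Prrx1, a homeobox factor of limb bud and other mesenchyme, was read by 4 probe sets, all higher in the mutant by sign, with log2 differences of 0.05 to 0.16. Probe set 1425526_a_at read 0.955, 0.990 and 1.019 in the wild-type pools and 1.010, 1.293 and 0.958 in the mutant pools, so that mutant pool 2 alone stood high. The log2 difference of 0.13 (SE 0.13) was -0.0058 without that pool. Probe set 1425528_at read 0.688, 1.005 and 1.080 in the wild-type pools and 0.858, 1.216 and 0.995 in the mutant pools, with wild-type pool 1 low. Its difference of 0.16 (SE 0.19) was -0.04 without wild-type pool 1. Probe set 1432129_a_at read 0.896, 1.003 and 0.935 in the wild-type pools and 1.124, 0.997 and 1.026 in the mutant pools (log2 difference 0.15, SE 0.11). Probe set 1425527_at read 0.896, 1.215 and 0.944 in the wild-type pools and 1.130, 0.996 and 1.004 in the mutant pools (log2 difference 0.05, SE 0.14). Wild-type pool 1 was lowest for all 4, and which pool was highest varied among them. Probe sets of Prrx1 differed from each other by root mean square differences of 0.11 to 0.29 on the log2 scale over the pools. The median within-genotype SD of the 4 was 0.17, which measures spread about a group mean and is not directly comparable.

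**Figure D3:**
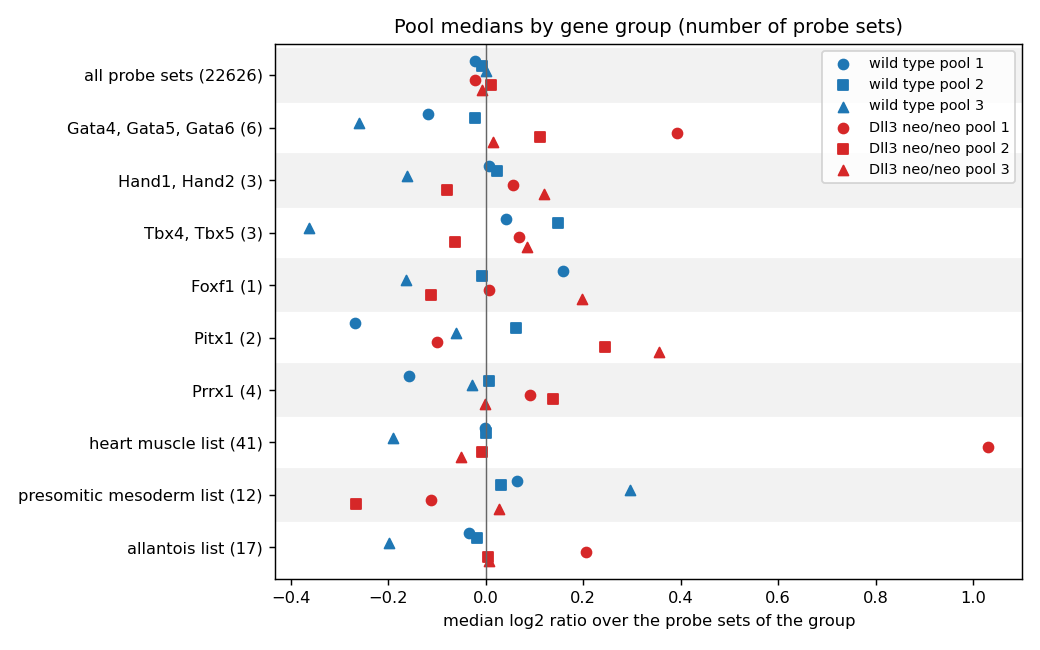
Median log2 ratio in each pool over the probe sets of each gene family, of all probe sets and of the heart muscle, presomitic mesoderm and allantois lists, with the number of probe sets in parentheses. The heart muscle list stood at 1.03 in mutant pool 1, the GATA genes were highest there at 0.39, and Pitx1 was highest in mutant pool 3.

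Without mutant pool 1, the log2 difference moved closer to 0 for 11 of the 19 probe sets and farther from 0 for 8, and it turned its sign for 2, 1 each of Tbx5 and Prrx1. Over 1.5-fold changes in size went towards smaller values for 8 and towards larger for 3. The members also varied within a genotype more than most probe sets, with 13 of 19 above the median within-genotype SD of all probe sets (0.16) and 7 above the 80th percentile.

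Other genes of the lateral plate and limb were described from lists that are not part of the set. Of 41 probe sets of 30 other transcription factor genes of these tissues, 24 were higher by sign, 17 lower and 0 called, and the median was 0.03. The 2 with the smallest p were Prrx2, a homeobox relative of Prrx1 (0.30), and the limb bud LIM homeobox gene Lhx2 (0.29). Prrx2 read 0.875, 1.026 and 0.900 in the wild-type pools and 0.974, 1.214 and 1.280 in the mutant pools, high in mutant pools 2 and 3 as 1 probe set of Pitx1 was, and its difference was 0.42 without mutant pool 1.

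Secreted signals and receptors of lateral plate and limb had 17 of 32 probe sets higher and 15 lower, with a median of 0.02 and 0 called. Without mutant pool 1, 15 of 32 were higher and the median was -0.02. Wnt2, a ligand of lateral and allantois mesoderm, read 0.885, 0.942 and 0.889 in the wild-type pools and 1.267, 1.329 and 1.058 in the mutant pools, without overlap (log2 difference 0.42, SE 0.12, limma adjusted p = 0.9999). The retinoic acid receptor gene Rarb had 0.31, also without overlap. Partners and cofactors of the members had 21 of 28 probe sets higher, with a median of 0.08 and 0 called. The smallest p belonged to Smarcd3, a chromatin remodelling subunit that works with GATA and T-box factors in the heart (0.37, and 0.31 without mutant pool 1), and Myocd, a coactivator of muscle genes (0.35, and 0.24 without mutant pool 1). The largest difference there was 0.42, for 1421027_a_at of Mef2c, a heart and muscle factor, with overlapping genotypes.

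Markers of presomitic mesoderm and of other tissues are given by sign, since none was called. Their part in the differences of the members was not tested. All 12 probe sets of 10 presomitic mesoderm and tail bud genes had a lower mutant mean, the median of their log2 differences was -0.27, and 0 were called. Without mutant pool 1, without wild-type pool 3 and without both, 0 of 12 were higher, with medians of -0.30, -0.21 and -0.24. Hes7 (-0.43) and Tbx6 (-0.39) had the smallest p. The pool medians of that list were 0.07, 0.03 and 0.30 in the wild-type pools and -0.11, -0.27 and 0.03 in the mutant pools. Wild-type pool 3 was thus the highest pool of that list, while it was the lowest for 9 of the 19 member probe sets. Heart muscle probe sets were higher for 38 of 41, with a median of 0.35, for 25 of 41 without mutant pool 1, with a median of 0.04, and for 19 of 41 without that pool and wild-type pool 3, with a median of -0.03. Tnni1 (1.01, and 0.32 without mutant pool 1) and Actn2 (0.56, and 0.23) had the smallest p there. Allantois and umbilical mesoderm had 15 of 17 higher, with a median of 0.12, 11 of 17 without mutant pool 1 and 8 of 17 without both pools, with a median of -0.03. Postn (0.46) and Col1a1 (0.49) had the smallest p of that list, and the largest difference was 0.73, for 1416454_s_at of Acta2 (0.40 without mutant pool 1). Endothelium had 14 of 19 higher with a median of 0.06, 14 of 19 without mutant pool 1 (median 0.12) and 13 of 19 without both pools (median 0.09). Tie1 (0.31) and Emcn (0.31) had the smallest p there. Gut and visceral endoderm had 19 of 29 higher with a median of 0.06, 14 of 29 without mutant pool 1 and 12 of 29 without both pools. Amn (0.22) and 1416646_at of Afp (0.38, and 0.14 without mutant pool 1) had the smallest p there, and the largest difference was 0.56, for 1416645_a_at of Afp (-0.07 without mutant pool 1). None of these lists had a probe set past the threshold.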

How the data were processed

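RNA from 6 pools was hybridised to MOE430A arrays. The authors deposited linear ratios, in which the values show a median of 1 over the arrays for most probe sets. The submitters' processing notes name RMA and MAS5 but not their role, so how signals were summarised and normalized is unknown. No normalization was added. Of 22690 probe sets, 64 controls were left out. Symbols came from the platform annotation, updated by Entrez ID through RefSeq: 20380 had 1 symbol, 691 several and 1555 none here.

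Log2 ratios, without an offset, were compared between genotypes with limma (version 3.58.1, in R version 4.3.3), a linear model on genotype with moderated variances and two-sided tests. Benjamini-Hochberg adjustment ran over all 22626 probe sets, with a threshold of 0.05. An exact permutation test of 3 against 3 pools cannot go below 0.10, so none was used. The precision is limited by the 6 arrays. The test was checked on simulated data. Same-numbered pools' deviations from the group means correlated at 0.21, 0.02 and 0.17, against -0.21 to 0.08 for differently numbered pools. These values do not settle whether pools were paired. The labels give replicate numbers only, and the numbers were not taken as pairs.

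The members and lists were chosen with earlier results of these data known. Named genes were all members, Dll3, the 2 probe sets with the smallest p in each of 8 lists, and the 3 nearest in pattern to any member probe set spanning at least 1 log2 unit. Probe sets of Mef2c, Ttr and Acta2 and further probe sets of Afp were also named, after their values were seen. Alternatives were an offset, quantile normalization, median centring, a filter on medians, variance models, array weights, a replicate block, gene means and leaving out pools. Plots used matplotlib 3.10.9 in Python 3.11.15.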

Additional observations from a re-analysis of the deposited data

How the results depend on the processing

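Over 15 alternatives the 19 member probe sets gave 285 differences. Of these, 261 kept their sign, 24 turned it and 0 became calls, and 9 probe sets never turned. The variance models, the filter on medians and the replicate block cannot change a member difference. Those signs were fixed in advance, so the count that kept its sign overstates how stable the members were. The 6 GATA probe sets kept their sign, except Gata5 1450126_at with array weights (-0.024). Array weights, which were 83.9 for wild-type pool 2 and at most 0.756 for any other pool, also turned Hand1 1448750_at (-0.046), Tbx4 (-0.11), Tbx5 1425694_at (-0.17) and Prrx1 1425527_at (-0.23). Quantile normalization turned Tbx5 1425694_at (-0.037) and Prrx1 1425527_at (-0.032). Leaving out single pools gave ranges of -0.075 to 0.21 for Hand1 1448750_at, -0.30 to 0.094 for Hand2, -0.0088 to 0.28 for Tbx4, -0.11 to 0.16 for Tbx5 1425694_at, -0.049 to 0.12 for Foxf1, -0.0058 to 0.21 for Prrx1 1425526_a_at, -0.040 to 0.18 for Prrx1 1425527_at and -0.041 to 0.28 for Prrx1 1425528_at. Some probe sets kept their sign whichever single pool was left out. Among these, the widest relative ranges were 0.045 to 0.24 for Pitx1 1449488_at, 0.018 to 0.19 for Tbx5 1425695_at, 0.077 to 0.45 for Gata5 1450126_at and 0.13 to 0.43 for Gata6 1425463_at. Without both wild-type pool 3 and mutant pool 1, Hand1 1448750_at was -0.11, Tbx5 -0.25 and -0.0082, Foxf1 -0.033 and Prrx1 1425527_at -0.061.

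The median of the members was 0.075 on log2(value + 1), which compresses ratios, 0.047 with array weights, 0.066 without both pools and 0.15 to 0.23 without single pools. By gene means 9 of 10 genes were higher. The count without overlap was 3 to 8 without single pools and 6 without both pools. Fewer pools make a lack of overlap easier to reach. It held for 10.6% to 13.1% of all probe sets in those comparisons with 1 pool dropped where that share was taken. The share was not taken with both pools dropped, nor with wild-type pool 1 or 3 dropped alone. Those counts therefore cannot be ranked against the 3 seen with all pools. Calls over all probe sets numbered 2 with quantile normalization, 4 with array weights, 0 without both pools and 0 to 1 without single pools. Without mutant pool 1 there were 0 calls (342 at an unadjusted limma p under 0.05). There were then 1 with quantile normalization, with the filter on medians, with a variance trend or by gene means, 10 with array weights and 7 with the replicate number as a block, and 0 to 28 with a further pool left out, where mutant pool 2 alone stood for its genotype at the upper end and was assumed to vary like the wild type. These alternatives for 5 pools were added after the data were seen. With all 6 pools the replicate block left 1 call and all member differences as they were. Causes were not tested. With 3 pools per genotype and standard errors of 0.11 to 0.19, differences of the size seen here could not be told from the spread between pools.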
